A study of Mus musculus with 12 samples.

Results

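The genes described here are the 10 core genes of transforming growth factor beta (TGF-beta) signalling chosen by their role in the pathway and not by a threshold on any measured value. They are the ligand gene *Tgfb1*, the activator *Nrros*, the receptor genes *Tgfbr1* and *Tgfbr2*, the signal transducers *Smad2*, *Smad3* and *Smad4*, the inhibitor *Smad7* and the repressors *Ski* and *Skil*. All 10 were found by their Ensembl identifiers among the 55487 genes of the table, and all 10 passed the filter on low counts, which kept 16908 genes. They were read out in 12 RNA-seq libraries of microglia, the resident macrophages of the brain, from the basal forebrain and striatum of YARG mice at postnatal day 13. ARG1+ and ARG1- microglia came from the same mouse strain, in which yellow fluorescent protein (YFP) is made from the *Arg1* locus, so that all cells carried the reporter allele and the populations were told apart by YFP in the sort. There were 3 libraries each of ARG1+ female, ARG1+ male, ARG1- female and ARG1- male microglia, and the brains of several mice were pooled for each library.

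TGF-beta is secreted in a latent form, bound to its own propeptide, and has to be released before it can act. On microglia the latent complex is held at the cell surface by NRROS (also called LRRC33), from which integrins free the ligand. The free ligand brings together the type II receptor TGFBR2 and the type I receptor TGFBR1, a kinase that phosphorylates SMAD2 and SMAD3, and these enter the nucleus with SMAD4 to regulate genes. SMAD7 blocks the receptor, and SKI and SKIL (SnoN) hold SMAD complexes in a repressed state. *Smad7* and *Skil* are themselves targets of the pathway. Microglia depend on this signal for their mature, homeostatic gene program.

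The promoters of the members with the highest levels per length (*Tgfbr1*, *Nrros* and *Tgfbr2*, described below) are shown as a description. Any link between these sequences and the levels across the libraries was not tested. RefSeq promoters on GRCm38.p6 were found for 6 of the 10 members, in 7 windows. Each line gives the 250 bases directly before the annotated start, in the 5′ to 3′ direction of the gene. Capitals mark the SMAD box, CAGAC or GTCTG on the other strand, and the GC-rich SMAD site, GGCGC or GCGCC, which can overlap its own reverse complement.
Tgfbr1, chr4:47352972-47353221, plus strand: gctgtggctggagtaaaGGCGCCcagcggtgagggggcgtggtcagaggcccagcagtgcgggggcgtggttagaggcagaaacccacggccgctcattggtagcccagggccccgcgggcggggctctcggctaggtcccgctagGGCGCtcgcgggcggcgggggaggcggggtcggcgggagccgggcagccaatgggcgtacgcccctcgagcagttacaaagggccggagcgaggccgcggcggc
Tgfbr2, chr9:116175364-116175613, minus strand: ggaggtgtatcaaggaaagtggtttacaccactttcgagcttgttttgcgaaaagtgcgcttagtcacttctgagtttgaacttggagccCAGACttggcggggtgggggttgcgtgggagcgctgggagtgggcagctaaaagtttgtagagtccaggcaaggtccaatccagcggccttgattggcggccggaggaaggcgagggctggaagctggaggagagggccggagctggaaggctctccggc
Nrros, chr16:32165595-32165844, minus strand: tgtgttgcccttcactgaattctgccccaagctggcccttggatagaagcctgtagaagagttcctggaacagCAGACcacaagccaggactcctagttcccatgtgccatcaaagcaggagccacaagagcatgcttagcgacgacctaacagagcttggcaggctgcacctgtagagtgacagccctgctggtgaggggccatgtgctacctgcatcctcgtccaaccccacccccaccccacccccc
The *Tgfbr1* window shown, at the gene's first start, held 0 SMAD boxes and 3 GC-rich sites, and its GC content was 74.8%. The window of a second *Tgfbr1* start, chr4:47385966-47386215, held 1 SMAD box, at position -203, and 0 GC-rich sites, and its GC content was 52.8%. The *Tgfbr2* window held 1 SMAD box, at position -160 from the start, and the *Nrros* window 1, at position -177, and both had a GC content of 58.4%. Over all 32817 promoter windows of the same length, 42.2% held a SMAD box and 32% a GC-rich site, so that neither motif set these genes apart. A match of these letters is a description and not evidence that a SMAD protein binds there.

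Total counts ranged from 28356659 to 60625170 per library. All 8 microglia marker genes listed were detected, with summed levels of 42252 to 60118 CPM (counts scaled to the TMM-normalized size of each library) in ARG1- and 35529 to 46230 CPM in ARG1+ libraries. *Arg1* itself had 52 counts in ARG1+ female replicate 15, 2 in ARG1+ female replicate 8 and 0 in the other 10 libraries, so its transcript does not check the sort. The libraries are bulk samples, in which fewer cells that express a gene and less RNA per cell cannot be told apart. By the study's methods 3 litters per sex were used, so that ARG1+ and ARG1- libraries of a sex can come from the same litters. The labels number the libraries but do not tie them to litters, and the tests treat all libraries as independent, so that p values measure the spread between pooled libraries.

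The first comparison asked whether the core genes of the pathway differed between ARG1+ and ARG1- microglia. None of the 10 did at an adjusted p under 0.05 in edgeR's quasi-likelihood test with sex as a second term: 0 were higher, beside 6.44% of all genes tested, and 0 were lower, beside 9.42%, or 15.9% of all genes in either direction. At an unadjusted p under 0.05 there was 1, *Tgfbr2*, where 29.1% of all genes tested were under that limit. The fitted log2 fold change of ARG1+ over ARG1- was positive for 5 members and negative for 5, with a median of 0.032 beside a median of 0.057 over all genes tested. No member had populations that did not overlap, which was the case for 10% of all genes tested. The 95% intervals of the fold change of the members other than *Ski* lay between 0.667 and 1.60, and that of *Ski* between 0.460 and 1.71, so that changes inside these bounds were not resolved by 6 libraries against 6. limma with voom quality weights and DESeq2's Wald test each called 1 member higher, *Tgfbr2*, and 0 lower.

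**Figure D1:**
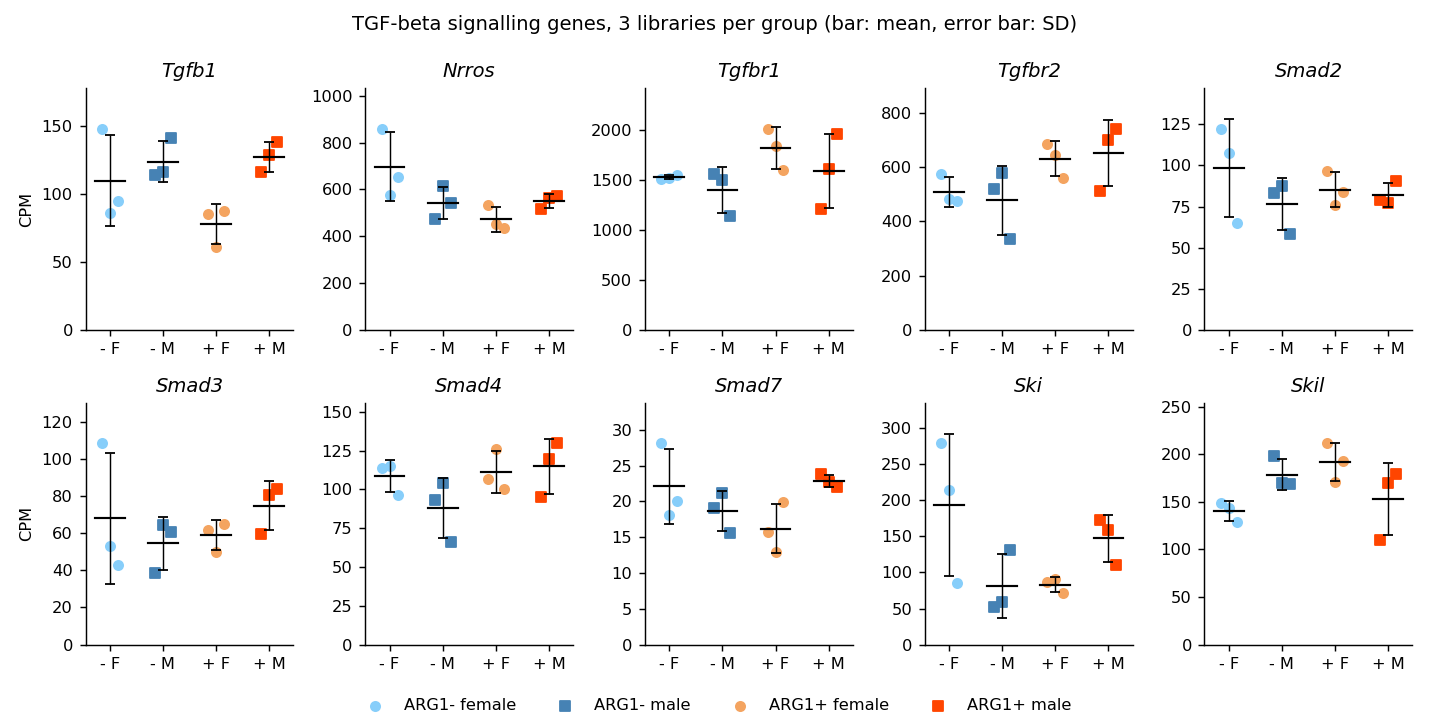
CPM of each of the 10 TGF-beta signalling genes in the 12 libraries (y axis from 0), with 3 libraries in each group, where - F, - M, + F and + M are ARG1- females, ARG1- males, ARG1+ females and ARG1+ males. Points are libraries, bars the mean and error bars the SD. The populations overlap for every gene, and *Ski* has the widest spread, from 51.7 to 279 CPM.

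**Figure D2:**
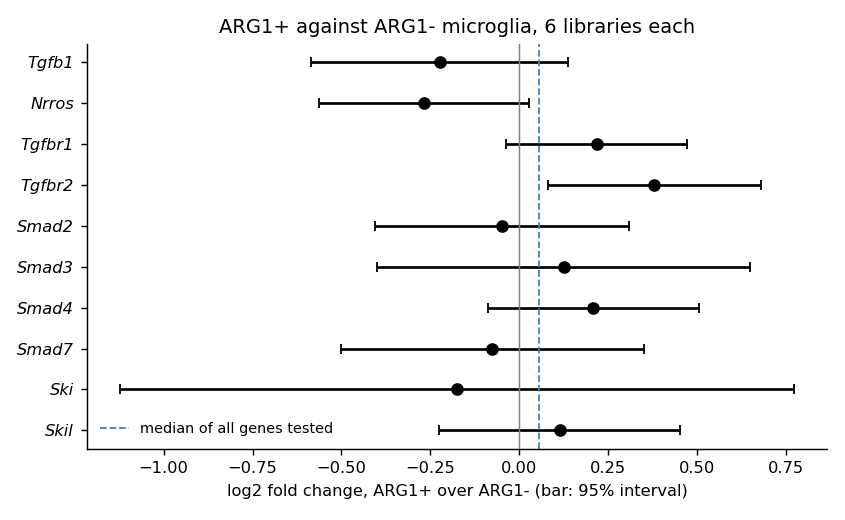
Fitted log2 fold change of ARG1+ over ARG1- microglia for each gene (x axis), with its 95% interval from edgeR, 6 libraries in each population. The grey line is at 0 and the dashed line at the median of all genes tested. The interval lies wholly above 0 for *Tgfbr2* (0.080 to 0.68) and includes 0 for the other 9 genes.

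The ligand and its activator had negative fitted changes in ARG1+ microglia that did not pass the limit. *Tgfb1* (ENSMUSG00000002603, chromosome 7, 25687002 to 25705077 on GRCm38), which encodes the main TGF-beta of microglia, had 148, 86.4 and 95.02 CPM in ARG1- females and 114, 116 and 141 CPM in ARG1- males. In ARG1+ microglia it had 85.5, 60.9 and 87.7 CPM in females and 116, 129 and 138 CPM in males. The ARG1+ female libraries were thus the low ones, 2 of them below every ARG1- library, and the ARG1+ male libraries lay within the ARG1- range. The mean was 103 ± 29.6 CPM in ARG1+ and 117 ± 24.5 CPM in ARG1- microglia (SD, n = 6 each). The fitted log2 fold change was -0.22 (SE 0.17), at an adjusted p of 0.413 in edgeR. It was -0.071 without ARG1- female replicate 1 and -0.11 without ARG1+ female replicate 8.

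*Nrros* (ENSMUSG00000052384, chromosome 16, 32142785 to 32165594), the anchor of latent TGF-beta on microglia, had 861, 575 and 653 CPM in ARG1- females and 475, 614 and 540 CPM in ARG1- males. It had 534, 450 and 435 CPM in ARG1+ females and 514, 563 and 573 CPM in ARG1+ males. Of the ARG1- libraries, 4 lay above the highest ARG1+ library, and 2 ARG1+ female libraries lay below the lowest ARG1- library. The mean was 512 ± 57.6 CPM in ARG1+ and 620 ± 133 CPM in ARG1- microglia (SD, n = 6 each). The log2 fold change was -0.27 (SE 0.14, adjusted p = 0.213 in edgeR), and it was -0.16 without ARG1- female replicate 1, the library with the highest value. The ratio of *Nrros* to *Tgfb1* per length was 4.62 to 8.29 in ARG1- and 5.01 to 8.92 in ARG1+ libraries, so that the activator was above its ligand in all 12.

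The receptor genes had positive fitted changes in ARG1+ microglia that did not pass the limit in the main edgeR fit. *Tgfbr2* (ENSMUSG00000032440, chromosome 9, 116084293 to 116175360), the ligand-binding type II receptor whose promoter carries the SMAD box shown above, had 574, 481 and 474 CPM in ARG1- females and 518, 578 and 336 CPM in ARG1- males. It had 687, 646 and 561 CPM in ARG1+ females and 513, 701 and 743 CPM in ARG1+ males. Of the ARG1+ libraries, 4 lay above every ARG1- library, and ARG1+ female replicate 15 and ARG1+ male replicate 11 lay within the ARG1- range. The mean was 642 ± 88.2 CPM in ARG1+ and 494 ± 89.0 CPM in ARG1- microglia (SD, n = 6 each), a 1.30-fold difference (95% interval 1.06 to 1.60, log2 fold change 0.38, SE 0.14). This was the smallest p of the members, at an adjusted p of 0.0838 in edgeR.

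The *Tgfbr2* result lies close to the limit. Its adjusted p was 0.0471 with limma, 0.0214 with DESeq2, and 0.0277 in edgeR when a gene needed 10 or more counts in all 12 libraries to be tested. In the edgeR fits that left out 1 library it ranged from 0.0429, without ARG1+ male replicate 11, to 0.144, and this fit was the 1 of 12 under the limit.

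*Tgfbr1* (ENSMUSG00000007613, chromosome 4, 47353222 to 47414931), the type I receptor kinase, had 1517, 1519 and 1554 CPM in ARG1- females and 1566, 1505 and 1136 CPM in ARG1- males. It had 2019, 1841 and 1601 CPM in ARG1+ females and 1213, 1610 and 1961 CPM in ARG1+ males. Of the 6 ARG1+ libraries, 5 lay above every ARG1- library, while ARG1+ male replicate 11 lay below all ARG1- libraries but replicate 14. The log2 fold change was 0.22 (SE 0.12, adjusted p = 0.243 in edgeR) between means of 1708 ± 298 and 1466 ± 163 CPM (SD, n = 6 each). Without ARG1+ male replicate 11 it was 0.31, and the adjusted p, 0.0521, was the smallest of the 12 fits that left out 1 library. The ratio of *Tgfbr1* to *Tgfbr2* per length was 3.26 to 4.24 in ARG1- and 2.88 to 3.68 in ARG1+ libraries.

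None of the Smad members passed the limit in edgeR. The 95% intervals of the fold change were 0.940 to 1.42 for *Smad4*, 0.754 to 1.24 for *Smad2* and 0.758 to 1.57 for *Smad3*. *Smad4* (ENSMUSG00000024515, chromosome 18, 73639009 to 73703780), the common partner of all receptor-activated Smads, had a lowest, median and highest value of 66.3, 100.4 and 115 CPM in ARG1- and 95.3, 113 and 130 CPM in ARG1+ libraries. Of the ARG1+ libraries, 3 lay above every ARG1- library, and the log2 fold change was 0.21 (SE 0.14, adjusted p = 0.349 in edgeR). *Smad2* (ENSMUSG00000024563, chromosome 18, 76241580 to 76310963), a transducer activated by the receptor, had 58.2, 85.4 and 122 CPM in ARG1- and 75.7, 81.4 and 96.4 CPM in ARG1+ libraries. All ARG1+ libraries lay inside the ARG1- range, and the log2 fold change was -0.050 (SE 0.16, adjusted p = 0.877).

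*Smad3* (ENSMUSG00000032402, chromosome 9, 63646767 to 63757994), the other transducer of TGF-beta, had 38.3, 56.8 and 108 CPM in ARG1- and 49.8, 63.4 and 83.7 CPM in ARG1+ libraries, lowest, median and highest. Here too all ARG1+ libraries lay inside the ARG1- range, whose top is ARG1- female replicate 1. The log2 fold change was 0.13 (SE 0.24, adjusted p = 0.779 in edgeR), and it was 0.39 without that library (adjusted p = 0.140). The ratio of *Smad2* to *Smad3* per length was 0.607 to 1.38 in ARG1- and 0.604 to 0.985 in ARG1+ libraries, so that *Smad3* was the higher of the pair in every ARG1+ library.

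Among the inhibitors, *Smad7* (ENSMUSG00000025880, chromosome 18, 75367529 to 75395935), which targets the receptor for degradation, was the member with the lowest level. It had 15.6, 19.5 and 28.1 CPM in ARG1- and 12.97, 20.9 and 23.8 CPM in ARG1+ libraries, lowest, median and highest. The means, 20.4 ± 4.23 and 19.5 ± 4.28 CPM (SD, n = 6 each), differed by less than the SD of either population, and the log2 fold change was -0.076 (SE 0.20, adjusted p = 0.841 in edgeR).

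*Skil* (ENSMUSG00000027660, chromosome 3, 31095058 to 31122577), which encodes the repressor SnoN, had 149, 143 and 129 CPM in ARG1- females, 198, 170 and 168 CPM in ARG1- males, 211, 171 and 193 CPM in ARG1+ females and 110, 170 and 179 CPM in ARG1+ males. Over both sexes the populations covered the same range except for the highest and the lowest library, both ARG1+. The log2 fold change was 0.11 (SE 0.16, adjusted p = 0.684 in edgeR), and it ranged from 0.047 without ARG1- female replicate 13 to 0.25 without ARG1+ male replicate 11.

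*Ski* (ENSMUSG00000029050, chromosome 4, 155154075 to 155222592), the related repressor of SMAD complexes, had 279, 215 and 86.0 CPM in ARG1- females and 51.7, 59.5 and 132 CPM in ARG1- males. It had 87.4, 91.4 and 71.0 CPM in ARG1+ females and 173, 159 and 111 CPM in ARG1+ males. The highest libraries (ARG1- female replicates 1 and 2) and the lowest (ARG1- male replicates 5 and 6) were all ARG1-, so that ARG1+ libraries lay inside the ARG1- range. The log2 fold change was -0.17 (SE 0.44, adjusted p = 0.834 in edgeR), and its sign turned without ARG1- female replicate 1 (0.079) and without ARG1+ female replicate 15 (0.045).

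*Ski* varied more than genes of like level. Its coefficient of variation over the 12 libraries was 54.6%, against a median of 20.7% among the 500 genes closest in mean CPM, and 98.6% of those had a lower one. For *Smad7* it was 20.5%, where the median of genes of like level was 31.9% and 8.4% had a lower one. Of the other members, *Smad3* had 30.2% and *Tgfb1* 24.5%, and the remaining 6 lay between 16.3% and 20.5%. ARG1- female replicate 1 was the highest of all 12 libraries for 6 members (*Tgfb1*, *Nrros*, *Smad2*, *Smad3*, *Smad7* and *Ski*), and ARG1- male replicate 14 the lowest for 4 (*Tgfbr1*, *Tgfbr2*, *Smad2* and *Smad4*). Their total counts, 36791548 and 32919277, lay within the range of the other libraries.

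*Tgfbr1*, *Tgfbr2* and *Smad4* followed each other most closely across the libraries. After each gene was centred on its own mean, the difference in log2 CPM, as a root mean square over the 12 libraries, was 0.15 for *Tgfbr2* and *Smad4* and 0.17 both for *Tgfbr1* and *Tgfbr2* and for *Tgfbr1* and *Smad4*. The next pair was *Tgfbr1* and *Skil* with 0.23. *Nrros* differed from *Tgfbr2* by 0.40. Of all 45 pairs, every pair with *Ski*, the member with the widest spread, differed by at least 0.589, and every other pair by at most 0.509. The furthest was *Ski* and *Skil*, with 0.89. These distances describe libraries that share their preparation and carry no test.

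The order of the genes in a library was taken from levels per length, as TPM (counts per base of annotated exon, scaled to the same sum in each library). *Tgfbr1* was first, with 736 ± 167 TPM (SD, n = 12 libraries) and rank 130 of all genes, followed by *Nrros* with 404 ± 59.9 TPM (rank 269) and *Tgfbr2* with 211 ± 56.5 TPM (rank 618). The receptors and the activator were thus far above the transducers. *Smad4* had 86.0 ± 18.1 TPM, *Ski* 67.3 ± 33.1, *Tgfb1* 65.2 ± 15.8, *Skil* 51.9 ± 12.1, *Smad3* 34.8 ± 10.6, *Smad2* 29.2 ± 5.47 and *Smad7* 13.2 ± 2.61 TPM, the last with rank 7693.

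In ARG1+ microglia, 6 of the 9 neighbours in this order differed in the same direction in 6 of 6 libraries (exact paired permutation test, two-sided, adjusted p = 0.0469 for each, from the smallest p this test allows, 0.03125). The steps from *Smad4* to *Ski* (adjusted p = 0.121 by the exact test), from *Ski* to *Tgfb1* (adjusted p = 1) and from *Tgfb1* to *Skil* (adjusted p = 0.598) did not pass. In ARG1- microglia 5 of the 9 steps had the same direction in 6 of 6 libraries, but the smallest adjusted p of the exact test was 0.0563, so that no step passed. The order was set from the means of the same libraries, and with 6 libraries whether a step passed rested on how many of the 9 were unanimous, so that nothing about the difference between the populations is read from it. With the length of the longest coding transcript in place of the exon union, *Tgfb1* had 113 TPM and stood above *Smad4* (70.7 TPM). Between populations, the TPM of all genes tested was shifted by a median of 0.34 on the log2 scale toward ARG1+, so that TPM is used here for the order within libraries only.

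**Figure D3:**
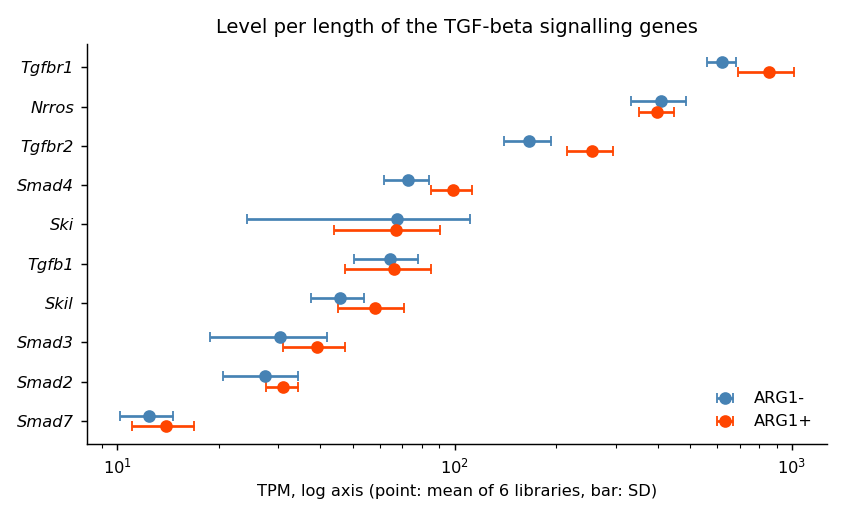
Level per length of the 10 genes in TPM on a log axis, with the mean of 6 libraries (point) and the SD (bar) for ARG1- and ARG1+ microglia. *Tgfbr1*, *Nrros* and *Tgfbr2* stand above the other 7 genes and *Smad7* is lowest. The offset between the populations includes the shift of 0.34 (log2) that all genes tested show on this scale.

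The next comparison asked whether the ARG1 difference held within each sex. In females 0 of the 10 members passed in edgeR, where 6.76% of all genes tested did, and 4 had an unadjusted p under 0.05, where 22.9% of all genes tested did. These were *Nrros* (log2 fold change -0.56, adjusted p = 0.0556), *Ski* (-1.22, adjusted p = 0.112), *Skil* (0.45, adjusted p = 0.154) and *Tgfb1* (-0.49, adjusted p = 0.195). In males 0 members passed, where 5.13% of all genes tested did, and 1, *Tgfbr2*, had an unadjusted p under 0.05 (0.45, adjusted p = 0.206), where 22.8% of all genes tested did. In males *Ski* had 0.87 (adjusted p = 0.249), while *Nrros* (0.020) and *Tgfb1* (0.045) were near 0. DESeq2 called 3 members in females, *Ski*, *Nrros* and *Skil*, and 0 in males. The share of all genes that DESeq2 called within each sex was not counted.

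The difference between the sexes in the ARG1 effect was tested as an interaction, which gave 0 members and 0% of all genes tested at an adjusted p under 0.05 in edgeR. At an unadjusted p under 0.05 there were 3 members, beside 9.32% of all genes tested. They were *Ski* with a difference of -2.08 (SE 0.60, adjusted p = 0.453), *Nrros* with -0.58 and *Skil* with 0.68 on the log2 scale. DESeq2 called *Ski* (-2.04, adjusted p = 0.0477). The share of all genes that DESeq2 called as an interaction was not counted. The *Ski* difference is made of a sex difference of 1.26 (female over male, log2) in ARG1- microglia and of -0.83 in ARG1+ microglia. In ARG1- microglia replicates 1 and 2 of the females were high and replicates 5 and 6 of the males low, while female replicate 13 (86.0 CPM) lay below male replicate 14 (132 CPM). In ARG1+ microglia all 3 female libraries (71.0 to 91.4 CPM) lay below all 3 male libraries (111 to 173 CPM). No single library left out brought the adjusted p under 0.241 in edgeR.

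Between the sexes, 0 members passed in ARG1- microglia, where 0.0946% of all genes tested did, and 0 in ARG1+ microglia, where 0.0355% did. At an unadjusted p under 0.05 were *Ski* (1.26, female over male) and *Nrros* (0.36) in ARG1- microglia, where 10% of all genes tested were, and *Tgfb1* (-0.71, adjusted p = 1 in edgeR) in ARG1+ microglia, where 3.12% were. The 3 ARG1+ female libraries had 60.9 to 87.7 CPM of *Tgfb1* and the 3 ARG1+ male libraries 116 to 138 CPM. DESeq2 called 0 members in either population.

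**Figure D4:**
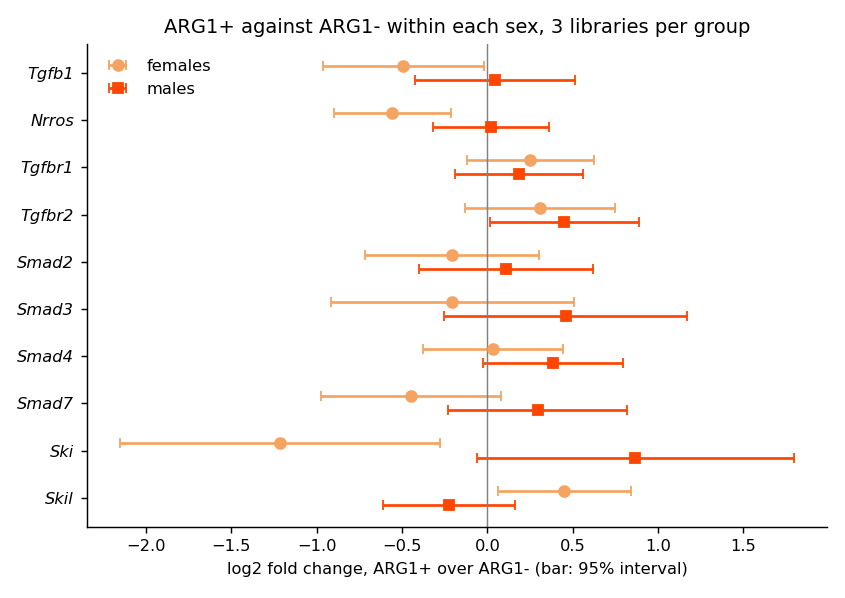
Fitted log2 fold change of ARG1+ over ARG1- microglia within females (circles) and within males (squares), with 95% intervals from the edgeR fit of the 4 group means, 3 libraries per group. The fits for *Ski* lie on opposite sides of 0 (-1.22 in females and 0.87 in males), and those for *Tgfbr1* and *Tgfbr2* on the same side.

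Around the core genes, 74 other genes of the pathway were listed by role, and 63 were tested. Of these, 9 rose in ARG1+ relative to ARG1- microglia, beside 6.44% of all genes tested, and 2 fell, beside 9.42%. In either direction this is 17.5% beside 15.9%, and the median log2 fold change was 0.25 beside 0.057. None of the 7 tested ligand and activation genes was called in edgeR, beside 15.9% of all genes tested. At an unadjusted p under 0.05, 2 were higher, beside 13.9% of all genes tested. These, named after their values were seen, were *Itgav*, a subunit of the integrins that release TGF-beta, with 190 ± 42.0 and 132 ± 26.5 CPM (0.54, adjusted p = 0.0544), and *Furin*, the protease that cuts the TGF-beta precursor, with 123 ± 32.6 and 80.2 ± 30.0 CPM (0.63, adjusted p = 0.0912), in ARG1+ and ARG1- microglia. *Tgfb3* had 0 counts in all 12 libraries, and *Tgfb2* had 212 counts in total, so that *Tgfb1* was the only one of the 3 ligand genes at more than 1 CPM on average.

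Of 14 receptor and receptor-binding genes, 0 were called, beside 15.9% of all genes tested. At an unadjusted p under 0.05, 4 were higher, beside 13.9% of all genes tested, and 0 lower, beside 15.2%. Of 3 other Smads, 0 were called, and *Smad1*, a transducer of bone morphogenetic proteins, had 99.4 ± 9.82 and 84.3 ± 18.4 CPM (adjusted p = 0.200 in edgeR). None of 6 genes of the TAK1 branch, which runs beside the Smads, was called. Of these, 0 had an unadjusted p under 0.05, beside 29.1% of all genes tested. Over the members and these 4 groups of genes there were 0 calls in the main edgeR fit. DESeq2 and the edgeR fit with 10 or more counts in all libraries called *Tgfbr2*, *Itgav* and *Furin* among those checked by name, and limma called *Tgfbr2*. Over all pathway genes, 16 were higher with DESeq2 and 14 with 10 or more counts, beside 9 in the main fit. The further genes, other than *Itgav* and *Furin*, were not identified.

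Of 17 ubiquitin and phosphatase genes that set the turnover of receptors and Smads, 3 were higher, which is 17.6% beside 6.44% of all genes tested. None was lower, beside 9.42% of all genes tested. In either direction this is 17.6% beside 15.9%. *Rnf111* (Arkadia), a ligase that degrades SKI, SnoN and SMAD7, rose from 56.4 ± 14.6 to 82.6 ± 9.18 CPM (SD, n = 6 each, log2 fold change 0.57, adjusted p = 0.0266 in edgeR). *Usp9x*, which removes ubiquitin from SMAD4, rose from 31.2 ± 9.68 to 55.9 ± 15.9 CPM (0.84, adjusted p = 0.0410), and *Stub1* (CHIP), a ligase of SMAD proteins, from 152 ± 22.3 to 198 ± 26.9 CPM (0.39, adjusted p = 0.0364). When 1 library was left out, *Rnf111* kept its call in 8 of 12 fits, *Usp9x* in 4 and *Stub1* in 3.

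Of 16 nuclear partners of the Smads, 6 were higher, beside 6.44% of all genes tested, and 2 were lower, beside 9.42%. In either direction this is 50% of them, beside 15.9% of all genes tested. Of 3 acetyltransferases that SMAD complexes recruit, *Crebbp* and *Ep300* rose, and *Kat2a* had 39.9 ± 5.01 CPM in ARG1- and 48.0 ± 9.43 CPM in ARG1+ microglia (adjusted p = 0.270 in edgeR). *Crebbp* had 26.4 ± 8.81 CPM in ARG1- and 52.1 ± 7.13 CPM in ARG1+ microglia (SD, n = 6 each), which is 1.01 on the log2 scale (SE 0.20, adjusted p = 0.00647 in edgeR), and *Ep300* had 45.4 ± 12.9 and 87.7 ± 20.9 CPM (0.95, adjusted p = 0.00926). *Ep300* ran from 32.3 to 63.6 CPM in ARG1- and from 64.3 to 121 CPM in ARG1+ libraries, so that its populations did not overlap, as did those of 3.48% of all genes tested in this direction.

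*Runx1*, a transcription factor that binds SMADs, rose from 37.8 ± 13.6 to 73.0 ± 9.53 CPM (1.01, adjusted p = 0.00566), *Hipk2*, a kinase of the SKI complex, from 25.1 ± 9.33 to 50.4 ± 11.1 CPM (1.05, adjusted p = 0.00784), and *Ncor1*, a corepressor that SKI brings to DNA, from 90.3 ± 30.0 to 144 ± 12.9 CPM (0.71, adjusted p = 0.0167). *Atf3*, a SMAD3 partner that is also an immediate early gene, had 17.6 ± 9.21 and 32.9 ± 9.37 CPM (0.99, adjusted p = 0.0401), and kept its call in 3 of 12 fits without 1 library. The lower genes were other parts of corepressor complexes. The histone deacetylase *Hdac1* fell from 85.6 ± 8.90 to 59.9 ± 7.58 CPM (-0.51, adjusted p = 0.0105), and *Sin3b*, a scaffold for deacetylases, from 112 ± 11.7 to 66.6 ± 9.23 CPM (-0.74, adjusted p = 0.00167). Neither had overlapping populations, as was the case for 6.56% of all genes tested in this direction.

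**Figure D5:**
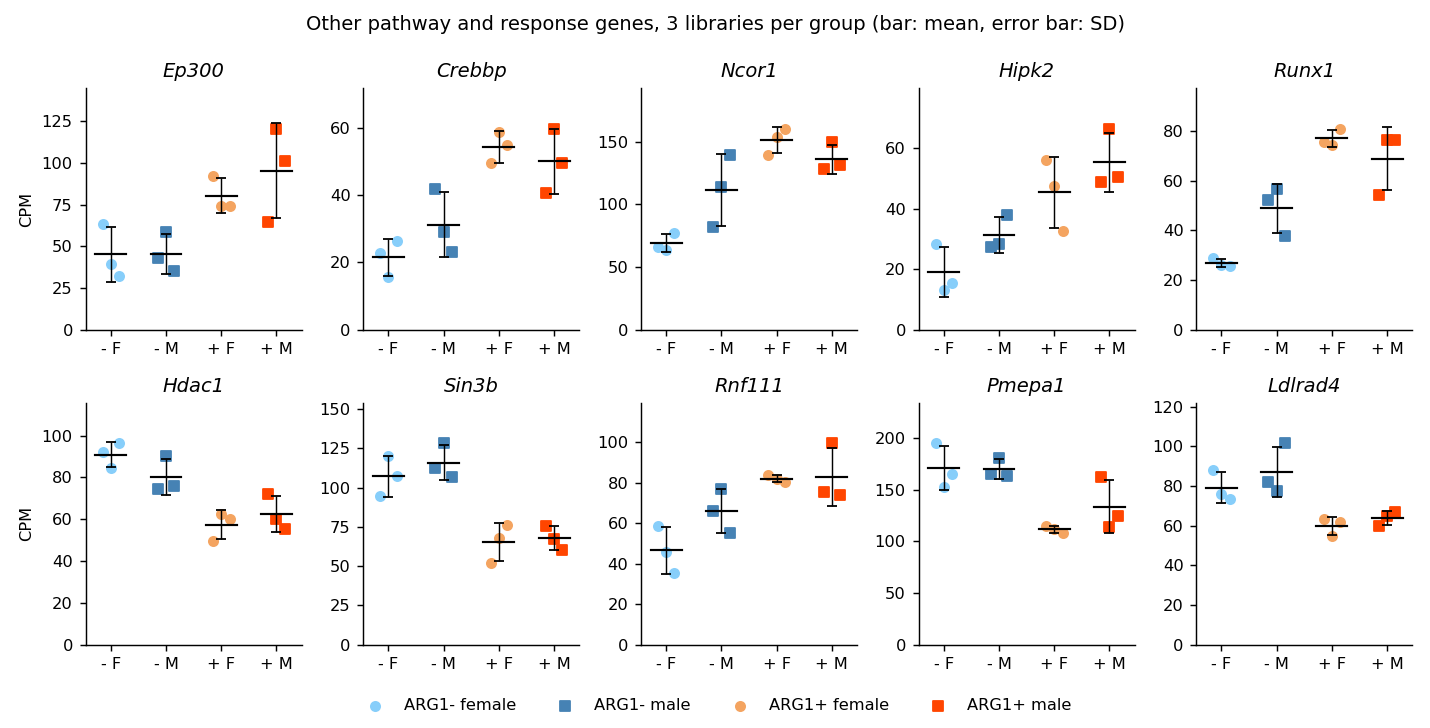
CPM of 10 other genes of the pathway and its response in the 12 libraries (y axes from 0), 3 libraries per group, with the mean (bar) and SD (error bar), where - F, - M, + F and + M are ARG1- females, ARG1- males, ARG1+ females and ARG1+ males. *Ep300*, *Hdac1*, *Sin3b* and *Ldlrad4* have no overlap between the populations, while *Ncor1* in 1 ARG1- male library (139 CPM) reaches the ARG1+ range.

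Beside these calls, part of a list of 12 genes also moved with ARG1 status. The list holds genes known for introns detained in the nucleus and the nuclear noncoding RNAs *Malat1* and *Neat1*. The summed level of the list was 2352 to 4765 CPM in ARG1- and 4927 to 8361 CPM in ARG1+ libraries, which do not overlap. *Rsrp1* was the largest part of these sums, with 1055 ± 254 CPM in ARG1- and 2591 ± 339 CPM in ARG1+ microglia (adjusted p = 0.000422 in edgeR). *Malat1*, part of these sums, had 959 ± 318 CPM in ARG1- and 1802 ± 660 CPM in ARG1+ microglia (adjusted p = 0.0661 in edgeR). Of the 12 genes, 5 were higher, *Neat1* among them, which is 41.7% beside 6.44% of all genes tested. None was lower, beside 9.42% of all genes tested, and 7 were not called. In either direction this is 41.7% beside 15.9%. The summed level of 10 immediate early genes, which rise when cells are handled, was 251 to 408 and 319 to 388 CPM. Of 9 tested, 2 were higher, which is 22.2% beside 6.44% of all genes tested, and 0 were lower, beside 9.42%. In either direction this is 22.2% beside 15.9%. The part of either in the values of the nuclear partners was not tested.

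Genes that respond to TGF-beta in many cells were listed as a readout of the pathway. The list gives no direction of response. The 14 tested that are not members had a median log2 fold change of -0.040, and 14.3% were called beside 15.9% of all genes tested. Of them 0 rose, beside 6.44% of all genes tested, and 2 fell, beside 9.42%. Both, named after their values were seen, encode feedback inhibitors that keep SMAD2 and SMAD3 from the receptor. *Pmepa1* fell from 170 ± 14.98 to 123 ± 20.3 CPM (SD, n = 6 each, log2 fold change -0.48, SE 0.11, adjusted p = 0.0118 in edgeR). *Ldlrad4* fell from 83.1 ± 10.4 to 61.9 ± 4.19 CPM (-0.42, SE 0.10, adjusted p = 0.0138), with 73.5 to 102 CPM in ARG1- and 54.8 to 66.7 CPM in ARG1+ libraries. Its adjusted p was 0.0505 with no filter and 0.0511 without ARG1+ female replicate 8. Other responsive genes had values near each other in both populations, such as *Klf10* with 43.7 ± 11.4 and 43.5 ± 14.995 CPM in ARG1+ and ARG1- microglia and *Junb* with 126 ± 9.28 and 134 ± 24.2 CPM.

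A list of 13 homeostatic genes that microglia need TGF-beta for had 9 lower and 2 higher genes in ARG1+ microglia. This is 84.6% beside 15.9% of all genes tested, with a median log2 fold change of -0.55. Many genes of this list were named by the study on these samples, so its direction is not independent evidence. *Csf1r* (log2 fold change 0.055, adjusted p = 0.861) and *Cx3cr1* (0.075, adjusted p = 0.752) were not called in edgeR. *P2ry13*, a nucleotide receptor, fell from 3880 ± 383 to 2758 ± 374 CPM (log2 fold change -0.49, adjusted p = 0.00640 in edgeR), and *Slc2a5*, a fructose transporter, from 853 ± 198 to 529 ± 60.5 CPM (-0.68, adjusted p = 0.00778). The genes that rose were *Sall1*, a transcription factor of microglial identity, from 333 ± 22.0 to 450 ± 80.8 CPM (0.43, adjusted p = 0.0239), and *Mertk*, a receptor for apoptotic cells, from 411 ± 72.2 to 640 ± 119 CPM (0.64, adjusted p = 0.0136).

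Markers of other cells were summed over each list, and their part in the values above was not tested. Border macrophage markers had 293 to 512 CPM in ARG1- and 397 to 837 CPM in ARG1+ libraries, with *Lyve1* and *Cd163* under the filter and *Stab1*, which microglia share, the most abundant (239 ± 75.3 CPM in ARG1- and 431 ± 138 CPM in ARG1+ microglia, adjusted p = 0.0277 in edgeR). *Mrc1*, whose protein CD206 was excluded in the sort, had 121 ± 16.1 and 147 ± 46.4 CPM (adjusted p = 0.371). Endothelial markers had 29.8 to 58.1 and 44.9 to 83.7 CPM. Astrocyte markers had 177 to 224 and 130 to 151 CPM, which do not overlap, nearly all from *Slc1a3* (176 ± 20.1 and 131 ± 4.95 CPM, adjusted p = 0.00817). Oligodendrocyte markers had 84.6 to 179 and 57.1 to 118 CPM, and neuron markers 6.95 to 13.1 and 2.32 to 7.95 CPM. Monocyte markers had 5.12 to 14.1 and 3.70 to 7.77 CPM, with 2 of 8 at 0 in all libraries. Neutrophil markers had 293 to 363 and 331 to 506 CPM, nearly all from *Csf3r*, with 2 of 9 at 0 and *S100a8* and *S100a9* under the filter.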

How the data were processed

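RNA from microglia of YARG mice at postnatal day 13, sorted by YFP as CX3CR1-positive, CD206-negative cells after pooling of brains, was amplified with SMART-Seq v4, and libraries were made with Nextera XT. Per the submitters' processing notes and the study's methods, the authors used bcl2fastq 2.20.0, aligned single-end reads to GRCm38 with STAR 2.6.1d and counted them on genes with featureCounts 1.5.1. The values the authors deposited are raw counts per gene, 1 column per library, and 0 columns were left unused. DESeq2 1.28.1 was used by the authors for their own comparison, which was not used here. Reads carry no molecular identifiers, so copies made in amplification are counted as reads.

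The counts were analysed in R 4.3.3. Symbols, positions and exon lengths came from GENCODE M21 (55227 of 55487 identifiers matched). All replicate pairs differed by more than sampling noise (chi-square 40.7 to 125 times its degrees of freedom), and each library counted as 1 replicate. Genes were kept with filterByExpr on the 4 groups (16908), normalized by TMM and tested with edgeR 4.0.16 (glmQLFit, glmQLFTest, Benjamini-Hochberg over all genes tested, limit 0.05), in a model of ARG1 status plus sex for all 12 libraries. Contrasts within a sex, between sexes and the interaction came from a fit of 4 group means. Scripts were tested on simulated counts. Alternatives were DESeq2 size factors, upper-quartile factors, no filter, at least 10 counts in every library, ARG1 status alone, a term for libraries numbered 13 to 16, thinned counts, limma 3.58.1 (voom with quality weights), DESeq2 1.42.0, longest coding transcripts for TPM and each library left out. Neighbours in the order of TPM were compared by an exact paired permutation test.

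The members and lists were chosen with earlier results of these data known. Genes named are the members, pathway genes at an adjusted p under 0.05, and others said to be named after their values were seen, which also holds for the named genes of the response, homeostatic and marker lists.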

Additional observations from a re-analysis of the deposited data

Results flagged for a closer look

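For the members and the named pathway genes, the 6 libraries of each population were checked for 1 that lay apart from the rest. Of 50 such groups, 6 held one, where chance gives 2.5. Among the members, *Tgfbr1* was low in ARG1- male replicate 14 (1136 CPM, others 1505 to 1566), and *Smad3* was high in ARG1- female replicate 1 (108 CPM, others 38.3 to 64.3). In the same ARG1- female replicate 1, *Furin* was high (138 CPM, others 54.2 to 77.6). *Atf3* was high in ARG1- female replicate 2 (34.8 CPM, others 7.96 to 17.9). In ARG1+ male replicate 11, *Runx1* was low (54.1 CPM, others 74.4 to 81.0) and *Pmepa1* high (163 CPM, others 108 to 125). Without that library the log2 fold change was 1.15 for *Runx1* and -0.55 for *Pmepa1*, and both calls held in edgeR.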

How the results depend on the processing

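No paired analysis was possible because the groups share no replicate numbers and the labels do not tie libraries to litters. No member was lower in ARG1+ microglia in any of the 9 alternatives or 12 fits without 1 library. The count of members higher was 1, *Tgfbr2*, with at least 10 counts in every library, with limma and with DESeq2, and 0 to 1 without 1 library. All genes higher came to 2141 with DESeq2, and to 690 (without ARG1+ male replicate 12) to 1116 without 1 library, and all genes lower to 1048 (without ARG1+ male replicate 16) to 1553. Pathway genes higher came to 14 with at least 10 counts, 16 with DESeq2 and 5 to 10 without 1 library (5 without ARG1+ female replicate 7 or ARG1+ male replicate 12). Members called within females were 3 with DESeq2 and 0 to 1 without 1 library, and the interaction gave 1 with DESeq2. For these DESeq2 contrasts the share over all genes was not counted. *Tgfb1* had 113 TPM and *Smad7* 10.5 TPM with the longest coding transcript.

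Without 1 library, signs turned for members far from any call. The log2 fold changes ranged from -0.44 to 0.079 for *Ski*, -0.14 to 0.052 for *Smad2*, -0.0024 to 0.39 for *Smad3* and -0.15 to 0.056 for *Smad7*, and in males from -0.065 to 0.12 for *Nrros* and -0.0083 to 0.17 for *Tgfb1*. The *Tgfbr2* interaction ranged from -0.31 to 0.068. The calls of *Stub1* (adjusted p = 0.0536) and *Ldlrad4* (0.0505) were lost with no filter, that of *Ldlrad4* also without ARG1+ female replicate 8 (0.0511), that of *Atf3* with ARG1 status alone (0.0613) and limma (0.0569), and that of *Usp9x* with limma (0.0594). *Itgav*, not called above, passed with DESeq2 size factors (0.0397), upper-quartile factors (0.0440), at least 10 counts (0.0175) and DESeq2 (0.00996), and *Furin* with at least 10 counts (0.0329) and DESeq2 (0.0259). The cause was not tested. *Ep300*, *Crebbp*, *Ncor1*, *Hdac1*, *Sin3b*, *Hipk2*, *Runx1* and *Pmepa1* kept their calls in 9 of 9 alternatives and 12 of 12 fits without 1 library. DESeq2 size factors shifted the median of all genes by 0.036 and upper-quartile factors by 0.014 (log2), and no member changed direction with either. With 6 libraries of pooled brains in each population, differences within the intervals given were not resolved.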
